A study of Mus musculus with 8 samples.

Results

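The genes described here encode the proteins of the splicing machinery and its main RNA-binding regulators. They were measured in mouse MII oocytes, blastocysts and implantation sites labelled KO or WT for connexin 43. They were all genes whose symbol on the array platform began with Srsf and a digit, Sf3a, Sf3b, Snrp or Hnrnp, or was U2af1 or U2af2. Of 18193 genes with a probe set annotated to them alone, 49 met this rule, and each was read from its brightest such probe set (mean log2 signal, 8 arrays). They comprised 10 SR proteins, 11 factors associated with the U2 particle, 9 snRNP proteins and 19 hnRNPs. A filter on dim probe sets kept 46 of the 49, and the 3 left out were Hnrnpl, Snrpn and Srsf12.

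The samples were KO and WT oocytes arrested at metaphase II (1 array each), KO and WT blastocysts (2 arrays each), and KO and WT material from the implantation site (1 array each). KO stands for depletion of connexin 43, which forms gap junctions between cells and is the product of Gja1. The title of the series describes it as directed to the oocyte, while the sources used here did not give the promoter or Cre used, the strain, the age of the mothers or any pooling of animals. The study asked how this loss changes the transcriptome at each of the 3 stages. Nothing states that the blastocyst replicates came from separate animals or cultures, so the p-values may measure only technical spread.

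Introns are removed from pre-mRNA by the spliceosome, which assembles from small nuclear ribonucleoproteins (snRNPs) built on a ring of Sm proteins. U1 recognises the start of the intron, while U2AF and then the SF3A and SF3B complexes of the U2 particle mark its end and the branch point. SR proteins (Srsf genes) mostly bind exons and promote their inclusion, and many hnRNPs bind silencer elements and oppose them, so that the balance of the families helps to set alternative splicing. Fully grown oocytes carry out almost no transcription and rely on stored maternal mRNA, whereas the blastocyst uses transcripts of the embryonic genome. The arrays measured the abundance of polyadenylated mRNA of these genes, and neither splicing itself nor protein.

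Signal is given in the linear MAS5 units of the deposited table, scaled to a trimmed mean of 500 on every array, and differences are on the log2 scale. The array medians ranged from 134 to 220. The brightest Bacillus control probe set, taken as background, read 131 to 560 on the KO arrays and 100 to 219 on the WT arrays. Of the 49 genes, 42 exceeded it on all 8 arrays. The ratio of the 3' to the 5' probe set of Actb, a measure of RNA integrity and labelling, was 6.68 on the oocyte KO array against 33.4 on the oocyte WT array, and 25.7 and 39.0 in KO against 69.3 and 69.1 in WT blastocysts. The same ratio of Gapdh was 2.41 in KO against 10.1 in WT oocytes, but 11.2 and 11.8 in KO against 7.27 and 7.71 in WT blastocysts, so in blastocysts the 2 genes ran in opposite directions. Their part in the KO results below was not tested. Gja1 read 375 and 553 in KO blastocysts, against 9835 on WT replicate 1 and 574 on the array labelled WT replicate 2, and 28105 in KO against 44493 in WT at the implantation site. The second blastocyst array labelled WT thus had Gja1 close to the readings of the KO arrays and far below WT replicate 1. The KO readings were, however, below the background of their arrays (395 and 560), while that of WT replicate 2 was above its own (219). The KO comparison in blastocysts is given with and without the array labelled WT replicate 2. In oocytes the brightest probe set of Gja1 (150 in the KO and 126 in the WT) was below background on both arrays. Of 5 other probe sets, 1 was just above background on the KO array (353 against 334) and another on the WT array (139 against 132), so the oocyte labels could not be checked with this gene.

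Although the source label of the implantation samples names embryo, markers of uterine stroma and decidua summed to 161085 in the KO and 138702 in the WT there, against at most 4141 on any other array. Of the 11 markers, 10 and 11 were above background there, but so were 10 on the oocyte WT array and 8 on the blastocyst array labelled WT replicate 2. Trophectoderm markers summed to 5149 in the KO and 3096 in the WT there, with 4 of 7 above background on each, and to 52442 to 65627 in blastocysts. Muscle markers summed to 17326 in the KO and 26993 in the WT implantation site. Leukocyte markers summed to 24684 in the KO and 22183 in the WT implantation site, and to 7676 and 14125 in KO against 1269 and 4668 in WT blastocysts. Of the 5 leukocyte markers 2 were above background on each KO blastocyst array, against 3 and 2 on the WT arrays, and most of the sum was Csf1r, at 6134 and 11937 in KO against 593 and 3881 in WT blastocysts, while Ptprc was below background on all 4. Differences between stages are therefore differences between tissues of unlike makeup, and in such bulk samples fewer cells of a type and less RNA per cell cannot be told apart.

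Most of the splicing genes were readily detected at every stage and differed several-fold between stages. Among the 46 that passed the filter, the implantation site had the highest geometric mean for 23, the oocyte for 12 and the blastocyst for 11. The lowest stage was the oocyte for 26, the blastocyst for 13 and the implantation site for 7. The smallest spread was that of U2af1, the small subunit of U2AF that contacts the end of the intron, whose highest and lowest stage means were 1.16-fold apart. Snrpg, a protein of the Sm ring, varied 1.26-fold. Hnrnpa2b1, which sorts and packages RNA, varied 1.34-fold on its brightest probe set, but another of its probe sets was 1.93 higher on the log2 scale at the implantation site than in oocytes. The widest was that of Snrpb, at 27.8-fold.

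**Figure D1:**
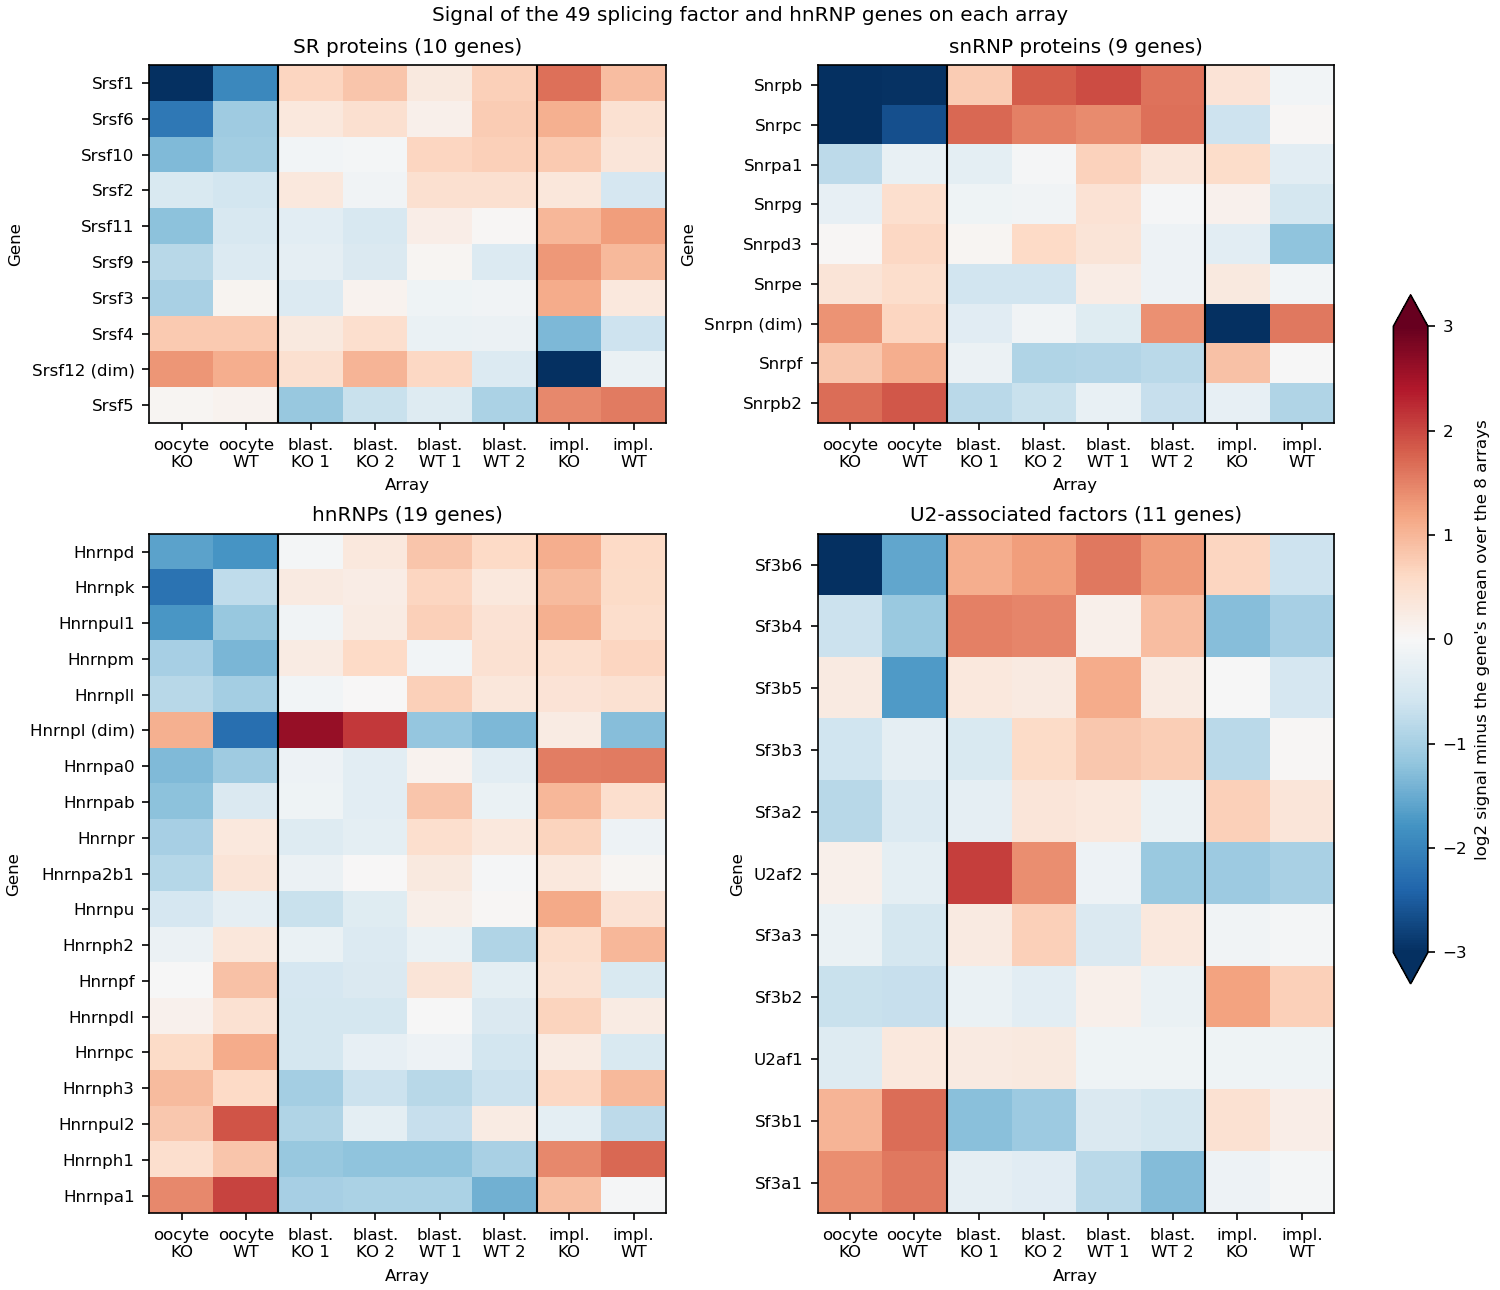
Heat maps of the log2 signal of each of the 49 genes minus its own mean over the 8 arrays, one panel per role group, with the arrays on the horizontal axis (blast. is blastocyst, impl. is implantation site) and genes ordered by their blastocyst minus oocyte difference. The scale stops at -3 and 3, "dim" marks the 3 genes that did not pass the filter, and in each panel some genes are high and others low in oocytes.

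Blastocysts and oocytes differed in both directions. Of the 46 genes, 13 were higher in blastocysts and 10 lower at an adjusted p under 0.05 (limma over 11745 genes, stage and genotype in the model, Benjamini-Hochberg adjustment), where 26.9% of all genes tested were called higher and 18.6% lower. In percent that was 28.3 and 21.7 of the splicing genes, close to the shares of all genes, so the counts are no result about the family. The higher genes included 2 snRNP proteins, 2 U2-associated factors, 3 SR proteins and 6 hnRNPs, and the lower ones 2, 2, 1 and 5 of the same groups. With quantile normalization 18 were higher and 9 lower, and with a common median 10 and 8.

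Within the snRNPs, Snrpb (gene ID 20638, chromosome 2, 130171636 to 130179382 in GRCm38.p6), which encodes the Sm protein B of the ring, read 316 on the oocyte KO array and 476 on the oocyte WT array. It read 6313 and 12984 in KO and 14440 and 11416 in WT blastocysts, and 4905 in KO and 3505 in WT at the implantation site. Every blastocyst array was far above both oocyte arrays, with the implantation site in between, and on the oocyte KO array the signal was below background. Snrpb was 27.8-fold higher in blastocysts (log2 4.80, SE 0.37, adjusted p = 2.48e-06), and its other probe set moved the same way.

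Snrpc, the U1 protein that helps U1 to pair with the start of the intron, had the same order of stages. Its signal was 251 in KO and 338 in WT oocytes, 6982 and 5960 in KO and 5643 and 6569 in WT blastocysts, and 1366 in KO and 2149 in WT at the implantation site. The 4 blastocyst arrays lay within a narrow band well apart from the rest. The difference of 21.5-fold (log2 4.43, SE 0.31, adjusted p = 1.42e-06) counts an oocyte KO array that was below background, so it is approximate.

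Sf3b6, the small SF3B subunit that sits at the branch point, read 214 in KO and 926 in WT oocytes, 5728 and 6444 in KO and 8101 and 6563 in WT blastocysts, and 4236 in KO and 1769 in WT at the implantation site. It was lowest on the oocyte KO array, where it did not exceed background, and highest in blastocysts of either genotype. The stage difference was 14.9-fold (log2 3.90, SE 0.52, adjusted p = 9.47e-05). Sf3b4, another SF3B subunit, read 4177 in KO and 3059 in WT oocytes, 18660 and 18215 in KO and 7307 and 12418 in WT blastocysts, and 2723 in KO and 3272 in WT at the implantation site. It was highest in KO blastocysts and did not overlap with the other stages (log2 1.89, SE 0.35, adjusted p = 0.000994).

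Among SR proteins, Srsf1, which binds exonic enhancers and is the best studied of the family, read 1161 in KO and 2668 in WT oocytes. In blastocysts it read 15831 and 18262 in KO and 12418 and 16808 in WT, and at the implantation site 31938 in KO and 19521 in WT. Oocytes were lowest and the implantation site highest, without overlap (blastocyst minus oocyte log2 3.16, SE 0.39, adjusted p = 5.64e-05). Srsf6 was 4.06-fold higher in blastocysts than in oocytes (log2 2.02, SE 0.36, adjusted p = 0.000768) and Srsf10, which can act as a splicing repressor, 2.83-fold (adjusted p = 0.00277). For Srsf10 the next probe set, nearly as bright, read 2936 in KO and 4865 in WT oocytes, against 1201 and 1019 in KO and 1756 and 1858 in WT blastocysts. It thus ran the opposite way, and with the mean of the probe sets the difference was 0.26 (adjusted p = 0.538). The hnRNPs higher in blastocysts were Hnrnpd, which binds AU-rich elements (log2 2.12, SE 0.32), the poly(C)-binding Hnrnpk (1.85, SE 0.41), Hnrnpul1 (1.77, SE 0.32), Hnrnpm (1.48, SE 0.30), Hnrnpll (1.17, SE 0.31) and Hnrnpa0 (1.03, SE 0.28), with adjusted p between 0.000269 and 0.00998.

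The genes that were lower in blastocysts were led by Hnrnpa1, a silencer-binding hnRNP that opposes SR proteins. It read 16014 in KO and 24178 in WT oocytes, 2965 and 3098 in KO and 3098 and 2196 in WT blastocysts, and 11063 in KO and 5790 in WT at the implantation site. Blastocysts were lowest on every array (log2 -2.81, SE 0.34, adjusted p = 5.21e-05). A second probe set of Hnrnpa1 moved the same way, while another, dim one read 182 and 89.3 in KO and WT oocytes and 172 to 231 in blastocysts, and when only probe sets without a suffix were used, which keeps that dim one, the difference was 0.65. Probe sets annotated to Hnrnpa1 together with other genes, above background on all 8 arrays, differed by 1.812, -3.396 and -3.075. The first of these ran opposite to the brightest probe set, and their signal cannot be assigned to Hnrnpa1 alone.

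Snrpb2 encodes a protein that binds the stem-loop of the U2 RNA together with the product of Snrpa1. Its signal was 7357 in KO and 8406 in WT oocytes, 1322 and 1458 in KO and 1994 and 1438 in WT blastocysts, and 1949 in KO and 1229 in WT at the implantation site. It was high in oocytes alone among these stages, falling 5.13-fold in blastocysts (log2 -2.36, SE 0.32, adjusted p = 0.000123). Its partner Snrpa1 showed no such drop on its brightest probe set, at 6593 in oocytes, 10560 in blastocysts and 10100 at the implantation site (geometric means). The 2 other probe sets of Snrpa1 differed by -0.782 and -0.087 between blastocysts and oocytes.

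Sf3b1, the largest SF3B subunit and a frequent target of mutation in human blood cancers, read 24526 in KO and 38628 in WT oocytes, 5100 and 5702 in KO and 8978 and 8387 in WT blastocysts, and 16700 in KO and 13951 in WT at the implantation site. Blastocysts were lowest, with the KO arrays below the WT arrays (log2 -2.17, SE 0.32, adjusted p = 0.000196). Sf3b1 was thus lower in blastocysts and Sf3b4 and Sf3b6 higher, although all 3 products belong to one complex. Sf3a1 was also called lower (log2 -2.17, SE 0.42, adjusted p = 0.00143), but its 2 other probe sets that passed the filter were higher in blastocysts, by 1.01 and 1.91, and the mean of its probe sets differed by 0.18.

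Hnrnph1, which binds runs of guanosine, read 15951 in KO and 20089 in WT oocytes, 5063 and 4880 in KO and 4827 and 5736 in WT blastocysts, and 30499 in KO and 36898 in WT at the implantation site. The blastocyst arrays lay close together and below all others (log2 -1.81, SE 0.28, adjusted p = 0.000315). The related Hnrnph3 was 2.96-fold lower in blastocysts (log2 -1.56, SE 0.33), Hnrnpul2 3.37-fold (-1.75, SE 0.40) and the Sm ring gene Snrpf 3.13-fold (-1.65, SE 0.33), with adjusted p between 0.00173 and 0.00399. Hnrnpc, which binds uridine tracts, and Srsf5 were called at -1.22 (SE 0.37, adjusted p = 0.0199) and -0.86 (SE 0.30, adjusted p = 0.0330), and the other probe set of Hnrnpc that passed the filter was 0.76 higher.

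Some of these calls rested on single arrays. Without the oocyte WT array, Hnrnpc (-0.84), Hnrnpll (0.87), Hnrnpul2 (-1.26), Snrpf (-1.25) and Srsf5 (-0.93) no longer passed. Without the oocyte KO array the same held for Hnrnpa0 (0.95), Hnrnpk (1.14) and Srsf5 (-0.80). Leaving out the first KO blastocyst array or the array labelled WT replicate 2 ended the calls of Hnrnpc (-1.15 either way) and Srsf5 (-0.76 either way), and leaving out the second KO array that of Hnrnpc (-1.26). The remaining 16 of the 23 calls passed with any one array left out. Of 32 further probe sets of the called genes, 25 moved in the direction of the one used. Some letter suffixes of probe set identifiers (s, x, a, i, f or r), though not all, mark possible cross-hybridization. With only probe sets without such a letter, the differences of Srsf1 (0.72), Hnrnpd (0.09) and Hnrnpk (0.18) did not pass. That of Hnrnpd did not pass for the mean of its probe sets either (1.16). Scaling to a common median ended the calls of Hnrnpk (1.68), Hnrnpll (1.00), Hnrnpa0 (0.86), Hnrnpc (-1.39) and Srsf5 (-1.03).

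**Figure D2:**
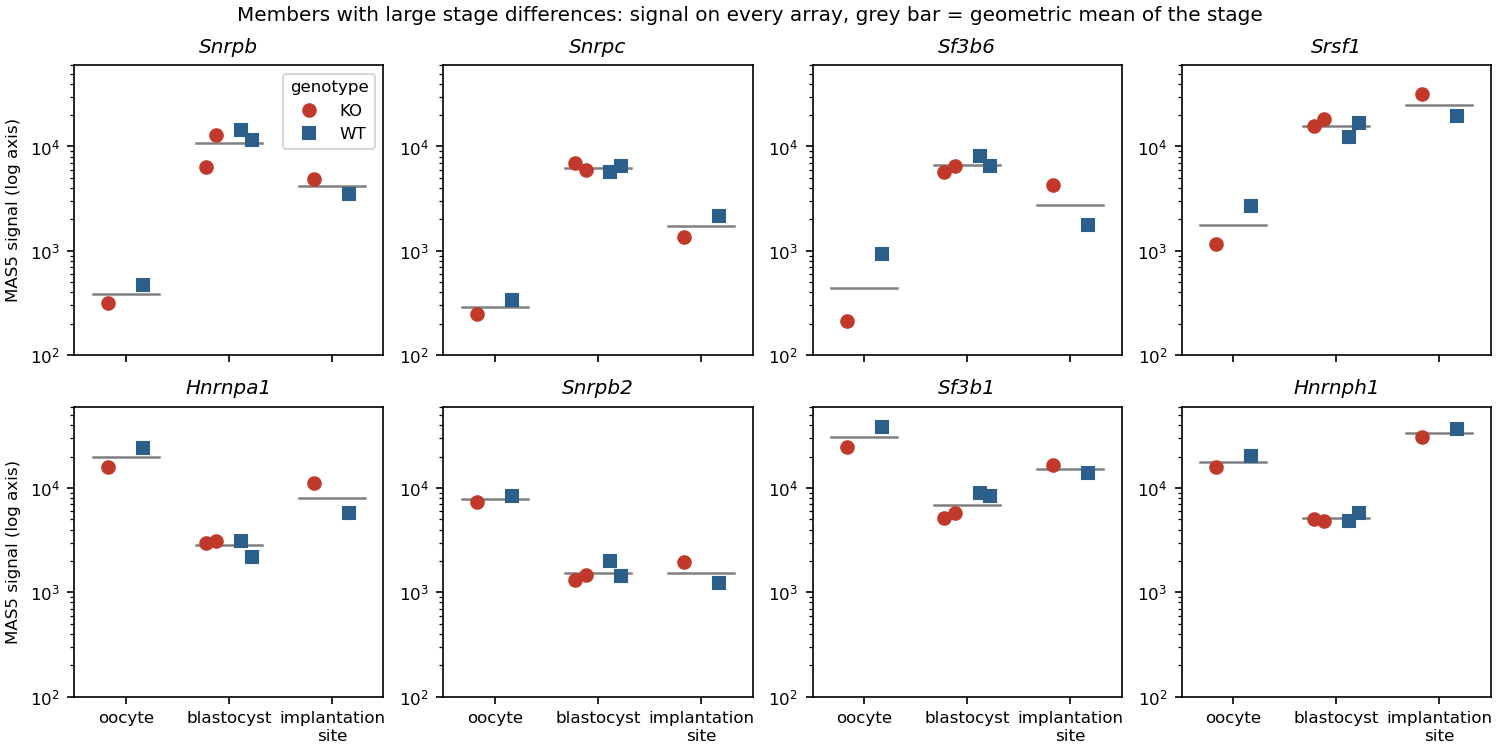
Signal on every array of 8 of the genes with the largest blastocyst minus oocyte differences, 4 in each direction and without Sf3a1, whose other probe sets moved oppositely, by stage on the horizontal axis, with a logarithmic vertical axis, KO as circles, WT as squares and grey bars for the geometric mean of the stage. Snrpb, Snrpc, Sf3b6 and Srsf1 were lowest in oocytes, Hnrnpa1, Sf3b1 and Hnrnph1 were lowest in blastocysts, and Snrpb2 was high in oocytes alone.

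The sequences before the transcription start of 2 genes of each direction are shown, since both sets lie in one family and moved oppositely between the oocyte and the blastocyst. They are the 250 bases before a RefSeq transcript start in GRCm38.p6, written 5' to 3' on the strand of the gene, and capitals mark matches on either strand to a GC box (GGGCGG) or to the core of an ETS site (CCGGAAG). Snrpc lies at chr17:27839837-27840086 (plus strand), Sf3b6 at chr12:4817358-4817607 (plus), Sf3b1 at chr1:55027479-55027728 (minus) and Snrpb2 at chr2:143062819-143063068 (plus).
Snrpc: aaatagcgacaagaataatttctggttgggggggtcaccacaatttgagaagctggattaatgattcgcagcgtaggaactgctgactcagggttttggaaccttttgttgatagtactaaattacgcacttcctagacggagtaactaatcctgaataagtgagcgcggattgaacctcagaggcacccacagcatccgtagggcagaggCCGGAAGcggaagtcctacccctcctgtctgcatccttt
Sf3b6: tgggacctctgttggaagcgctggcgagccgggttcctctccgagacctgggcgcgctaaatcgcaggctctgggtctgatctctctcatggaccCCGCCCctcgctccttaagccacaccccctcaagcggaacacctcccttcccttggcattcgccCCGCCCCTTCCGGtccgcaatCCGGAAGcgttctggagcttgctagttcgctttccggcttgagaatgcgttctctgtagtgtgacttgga
Sf3b1: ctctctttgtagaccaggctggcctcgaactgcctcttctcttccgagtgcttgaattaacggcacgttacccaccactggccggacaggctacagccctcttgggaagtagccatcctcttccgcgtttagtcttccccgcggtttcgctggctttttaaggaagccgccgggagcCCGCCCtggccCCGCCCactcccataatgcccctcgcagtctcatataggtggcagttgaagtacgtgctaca
Snrpb2: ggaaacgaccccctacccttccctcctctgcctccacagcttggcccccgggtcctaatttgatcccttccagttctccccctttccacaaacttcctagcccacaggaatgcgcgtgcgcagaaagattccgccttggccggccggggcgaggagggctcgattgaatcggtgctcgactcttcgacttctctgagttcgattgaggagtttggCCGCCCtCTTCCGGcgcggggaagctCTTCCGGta

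The GC box occurred 0 times in the bases printed for Snrpc, 2 times for Sf3b6, 2 times for Sf3b1 and 1 time for Snrpb2. The ETS core occurred 1, 2, 0 and 2 times. For Snrpc the transcript start used lay inside the gene as annotated, which begins at 27840028, and the ETS match lay past that point. The bases printed for Sf3b1 also reach into the gene, which ends at 55027501, but its GC boxes lie outside it. Over the RefSeq windows of 250 bases before to 50 after the start, the ETS core was present in 33.3% of 60 windows of 43 splicing genes, against 16.1% of 12134 windows of the genes tested and 8.86% of all 32851 windows. The GC box was present in 68.3%, 59.7% and 35.7% of the same sets, CCAAT in 48.3%, 37.1% and 37.4%, and TATAAA in 6 of 60, 984 of 12134 and 4473 of 32851. Both strands were searched and no 2 of these motifs contain each other. The 2 directions did not separate by these letters, since the ETS core was found for 3 of the 10 higher and 3 of the 9 lower genes with a window, and the GC box for 7 and 7. A match is a description of the letters in the window and not a site at which a factor was measured. Snrpb, Sf3b4, Sf3b5, U2af2, Hnrnpll and Hnrnpul2 were among the genes not matched to a window.

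At the implantation site, compared with oocytes, 20 of the 46 splicing genes were higher and 6 lower (limma, adjusted p under 0.05), against 20.5% and 16.6% of all genes tested. That is 43.5% of the splicing genes called higher and 13.0% lower. Bright genes were called more often, and 42 of the 46 lay among the brightest 2937 of the genes tested, in which 35.7% were called higher and 27.7% lower. The median difference of the 46 was 0.61, against -0.06 for all genes and 0.17 for the brightest 2937, and it stayed above 0 under both other scalings (0.61 and 0.80). The higher genes comprised 6 of 9 SR proteins, 9 of 18 hnRNPs, 3 of 11 U2-associated factors and 2 of 8 snRNP proteins, and the lower ones 1, 2, 2 and 1 of the same groups.

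Srsf1 showed the largest rise, at 14.2-fold (log2 3.83, SE 0.45, adjusted p = 7.66e-05), followed by Snrpb at 10.7-fold (3.42, SE 0.42) with the values given above. Hnrnpa0, which binds AU-rich RNA, read 1905 in KO and 2270 in WT oocytes, 4323 and 3842 in KO and 5149 and 3818 in WT blastocysts, and 13872 in KO and 14084 in WT at the implantation site. Its 3 stages formed separate bands in ascending order, each without overlap (implantation site minus oocyte log2 2.75, SE 0.32, adjusted p = 7.41e-05). Sf3b6 (2.62, SE 0.60), Snrpc (2.56, SE 0.35), Hnrnpd (2.54, SE 0.37), Srsf6 (2.36, SE 0.42), Hnrnpk (2.25, SE 0.47), Hnrnpul1 (2.24, SE 0.37) and Srsf11 (1.97, SE 0.34) completed the 10 largest rises, with adjusted p of at most 0.00498. The genes lower at the implantation site were Snrpb2 (-2.35, SE 0.37), Hnrnpul2 (-1.89, SE 0.46), Srsf4 (-1.77, SE 0.39), Sf3a1 (-1.59, SE 0.49), Hnrnpa1 (-1.30, SE 0.39) and Sf3b1 (-1.01, SE 0.37), with adjusted p between 0.000546 and 0.0491.

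Of these 26 calls, 15 passed with any one array left out. The calls of Hnrnpul2, Hnrnpa1, Sf3b1 and Sf3a1 ended without the oocyte WT array (-1.40, -0.77, -0.87 and -1.27). Hnrnpul2, Hnrnpa1 and Sf3b1 also ended without the implantation site WT array (-1.34, -0.80 and -0.54), and Sf3a1 without the KO array of that stage (-1.32). Those of Sf3b6 ended without the oocyte KO array (1.44) or the implantation site KO array (1.55), and that of Hnrnpk without the oocyte KO array (1.53). For Sf3b1 leaving out any array except that of the implantation site KO did so, the remaining values lying at -1.01 and, without the oocyte KO array, -1.15. The 5 other calls that ended were those of Hnrnpab, Hnrnph1, Hnrnpll, Hnrnpu and Sf3a2. With only probe sets without a suffix, Hnrnpk (0.87), Sf3b2 (1.10) and Sf3b6 (1.51) did not pass either, and Hnrnpa1 (0.8) and Sf3a1 (0.21) turned sign. With the mean of the probe sets Sf3b6 (1.07), Srsf10 (0.84), Hnrnpa1 (-0.81), Sf3a1 (-1.15) and Snrpc (-0.02) did not pass. The same held for Hnrnpab (0.99), Hnrnph1 (0.6), Sf3a2 (1.26) and Sf3b2 (-0.27). A common median ended the calls of Hnrnpab (1.76), Hnrnph1 (1.1), Hnrnpu (1.35) and Sf3a2 (1.35) among the higher genes. Among the lower ones it ended those of Sf3a1 (-1.40), Hnrnpa1 (-1.11) and Sf3b1 (-0.82).

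Compared with blastocysts, the implantation site had 11 of the 46 genes higher and 5 lower, against 15.3% and 20.0% of all genes tested. This is 23.9% and 10.9% of the splicing genes, and among the brightest 2937 genes the shares were 26.6% and 22.6%. The share of higher genes stood near that of other bright genes. Scaling to a common median gave 11 higher and 2 lower, against 2066 and 1598 of all genes tested. The median difference was 0.31 (all genes -0.36), but it was -0.05 without the implantation site KO array, which also lowered the count of calls to 8 (4 higher and 4 lower).

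The hnRNPs provided 5 of the 11 higher genes and none of the 5 lower ones. Hnrnph1 was 6.56-fold higher at the implantation site than in blastocysts (log2 2.71, SE 0.28, adjusted p = 5.29e-05), Hnrnpa0 3.29-fold (1.72, SE 0.28), Hnrnph3 3.00-fold (1.59, SE 0.33), Hnrnpa1 2.85-fold (1.51, SE 0.34) and Hnrnph2 2.27-fold (1.18, SE 0.34). Srsf5 read 3952 in KO and 4109 in WT oocytes, 1747 and 2397 in KO and 2920 and 1961 in WT blastocysts, and 10284 in KO and 11259 in WT at the implantation site. This SR protein was highest at the implantation site and lowest in blastocysts, a 4.86-fold difference between them (log2 2.28, SE 0.30, adjusted p = 0.000223). Srsf9 (1.39, SE 0.31), Srsf11 (1.27, SE 0.29), Sf3b1 (1.16, SE 0.32), Snrpf (1.13, SE 0.33) and Sf3b2 (1.09, SE 0.30) were also higher, with adjusted p between 0.00595 and 0.0215. For Sf3b2, 1 of 6 other probe sets had the same sign, and the difference was -0.52 for the mean of its probe sets and -0.02 with only those without a suffix.

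The genes that fell at the implantation site were Sf3b4 (log2 -2.15, SE 0.35, adjusted p = 0.000894), Snrpc (-1.87, SE 0.31, adjusted p = 0.000931), U2af2 (-1.59, SE 0.53, adjusted p = 0.0373), Snrpb (-1.38, SE 0.37, adjusted p = 0.0139) and Srsf4 (-1.09, SE 0.34, adjusted p = 0.0268). The calls of Hnrnph1, Hnrnpa0, Hnrnph3, Srsf5, Sf3b4 and Snrpc passed with any one array left out. Without the implantation site KO array the values of the others that ended were 1.02 for Hnrnpa1, 1.41 for Hnrnph2, 1.11 for Srsf9, 1.10 for Srsf11, 0.69 for Sf3b1, 0.74 for Snrpf, 0.76 for Sf3b2, -0.67 for U2af2 and -0.52 for Srsf4. Without the WT array of that stage Snrpb (-0.87) and Hnrnph2 (0.95) did not pass. With a common median Snrpb (-1.02), U2af2 (-1.23) and Srsf4 (-0.73) did not pass, and without the intensity trend in the variance 7 of the 16 calls ended. Leaving out a single blastocyst array also ended the calls of Hnrnph2 (0.97 without the array labelled WT replicate 2), Snrpf (0.98 without the second KO array), Sf3b1 (1.08 to 1.14), Sf3b2 (1.02 to 1.07), Srsf4 (-1.04 to -0.95) and U2af2 (-1.61 to -1.23).

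**Figure D3:**
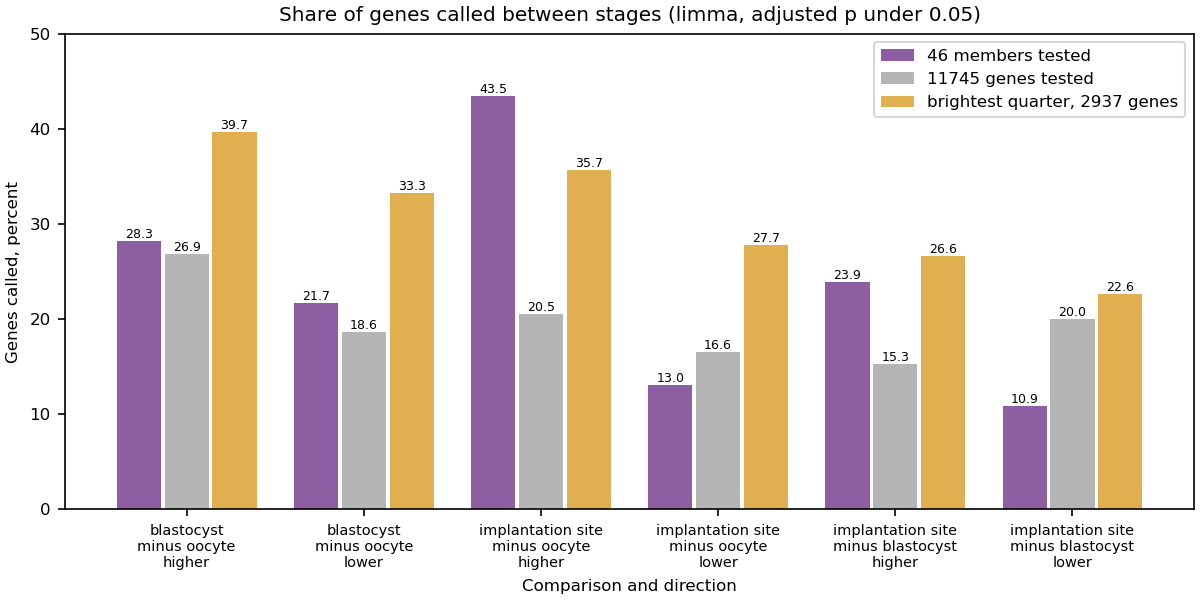
Percent of genes called between stages (vertical axis, from 0), higher or lower, for the 46 splicing genes tested, all 11745 genes tested and the brightest 2937 of them. The splicing genes exceed both backgrounds for the genes higher at the implantation site than in oocytes (43.5% against 20.5% and 35.7%), and lie between or below the backgrounds elsewhere.

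In blastocysts, none of the 46 splicing genes differed between KO and WT at an adjusted p under 0.05 (limma, 2 arrays per genotype), where 0.102% of all genes tested were called higher in KO and 0% lower. At an unadjusted p under 0.05, 2 were higher and 4 lower, against 1030 and 789 of the 11745 genes. The median difference was -0.23, with 13 genes above and 33 below 0, against -0.01 for all genes and -0.32 for the brightest 2937 genes, of which 2175 were below 0. By role, 15 of 18 hnRNPs, 7 of 9 SR proteins, 5 of 8 snRNP proteins and 6 of 11 U2-associated factors were below 0. KO and WT arrays did not overlap for 5 genes higher in KO (Sf3a1, Sf3b4, Srsf4, U2af1 and U2af2) and for 18 lower, where 23.8% and 25.3% of all genes were separated in these ways. Among the brightest 2937 genes these shares were 11.7% and 47.2%, against 10.9% and 39.1% of the splicing genes.

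The largest difference was that of U2af2 (gene ID 22185, chromosome 7, 5060885 to 5079945 in GRCm38.p6), the large U2AF subunit that binds the pyrimidine tract before the end of the intron. It read 13309 and 8248 in KO blastocysts against 2862 and 1452 in WT blastocysts, 3533 in KO against 2581 in WT oocytes, and 1475 in KO against 1601 in WT at the implantation site. Both KO blastocyst arrays exceeded all other arrays, and the genotypes stood close together at the other stages. The blastocyst difference was 5.14-fold (log2 2.36, SE 0.40) and did not pass (adjusted p = 0.0842). Without the array labelled WT replicate 2, which leaves 1 WT array, the difference was 1.87. U2af2 passed in limma with scaling to a common median (2.11, adjusted p = 0.0396) and with the replicate number as a block (adjusted p = 0.0124). More of all genes tested were called there too, 59 higher and 14 lower with a common median and 91 and 1 with the block. The main fit had 12 and 0. U2af2 thus did not pass in every setting. Its adjusted p ranged up to 0.317 over the alternatives run. U2af2 has a single probe set of its own, which cannot be compared with another.

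Sf3b4 came next, at 18660 and 18215 in KO against 7307 and 12418 in WT blastocysts (log2 0.95, SE 0.34, adjusted p = 0.264). Its second probe set was further apart, at 54240 and 54164 in KO against 9330 and 22175 in WT blastocysts, 5174 in KO against 873 in WT oocytes, and 626 in KO against 926 in WT at the implantation site. Both probe sets had the KO blastocysts above the WT blastocysts. Without the array labelled WT replicate 2, which leaves 1 WT array, the difference of the brighter probe set was 1.34. Sf3a1 had a difference of 0.75 (SE 0.51, adjusted p = 0.505).

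The 3 largest differences in the other direction were those of Srsf10, Hnrnpr and Sf3b3, none of which passed. Srsf10 read 2284 and 2328 in KO against 3811 and 3995 in WT blastocysts (log2 -0.76, SE 0.27, adjusted p = 0.268). Hnrnpr read 4964 and 5301 in KO against 9170 and 8038 in WT blastocysts (-0.74, SE 0.27, adjusted p = 0.271). In both, the replicates of a genotype lay close together and apart from those of the other. Sf3b3 read 605 and 1252 in KO against 1460 and 1387 in WT blastocysts (-0.71, SE 0.42, adjusted p = 0.442), and the wide gap is between its KO replicates.

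Hnrnpl, a hnRNP that binds CA repeats, was not tested because its probe sets were dim. Its brighter one read 650 and 463 in KO against 47.2 and 42.0 in WT blastocysts, 223 in KO against 22.1 in WT oocytes, and 126 in KO against 44.0 in WT at the implantation site. The first KO blastocyst array was the only array on which it exceeded background, and the second probe set was below background on all 4 blastocyst arrays.

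In oocytes, with 1 array per genotype and hence no test, 1 of the 46 genes was at least 2-fold higher in KO and 8 were at least 2-fold lower, against 23.9% and 12.3% of all genes tested. The median was -0.41, against 0.09 for all genes and -0.38 for the brightest 2937, so bright genes as a whole stood as low as the splicing genes. The KO oocyte array was also the one with the highest background after the KO blastocysts (334 against 132 in the WT) and with the lowest 3' to 5' ratios. Sf3b5, an SF3B subunit, read 871 in KO against 219 in WT oocytes, a log2 difference of 1.99.

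The 8 lower genes were Sf3b6, Hnrnpk, Hnrnpr, Hnrnpa2b1, Srsf1, Hnrnpul2, Srsf6 and Srsf3, which encodes the smallest SR protein. Sf3b6 read 214 in the KO, below background, against 926 in the WT, at least 2.77-fold lower. Hnrnpk read 6842 in KO against 18837 in WT oocytes (log2 -1.46), Hnrnpr 3257 in KO against 8019 in WT (-1.30) and Hnrnpa2b1 10742 in KO against 25292 in WT (-1.24). These 3 hnRNPs were among the bright genes and well above background on both arrays. Srsf1 (-1.20), Hnrnpul2 (-1.07), Srsf6 (-1.07) and Srsf3 (-1.05) were just over 2-fold apart, while Hnrnpf, the next gene, was not (-0.90). With quantile normalization 3 genes were at least 2-fold lower and with a common median 21. For the mean of the probe sets of a gene the balance turned, with 4 at least 2-fold higher in KO and 2 lower.

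At the implantation site, again with 1 array per genotype, 1 gene was at least 2-fold higher in KO and none lower, against 6.12% and 15.9% of all genes tested. The median was 0.42, against -0.13 for all genes and 0.16 for the brightest 2937, with 31 genes above and 15 below 0. It depended on the choice of probe set, being 0.02 when a gene's probe sets were averaged and 0.06 for those without a suffix. The median and the count of genes past 2-fold also depended on the scaling, with the values given in the last section. Sf3b6 was the gene past 2-fold, at 4236 in KO against 1769 in WT (log2 1.26). Hnrnpa1 followed at 11063 in KO against 5790 in WT (0.93), and the lowest was Sf3b3 at 477 in KO against 858 in WT (-0.85).

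**Figure D4:**
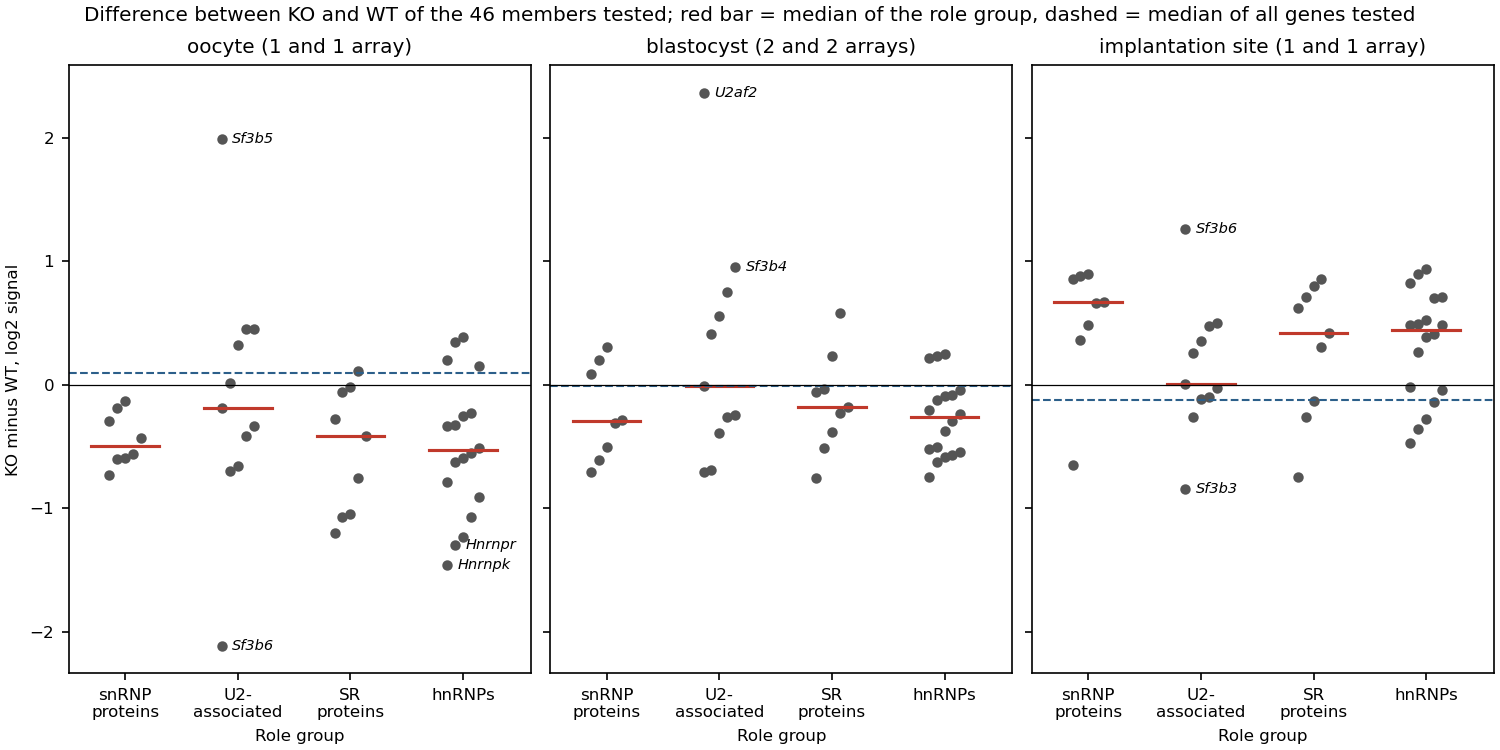
KO minus WT difference in log2 signal of each of the 46 genes tested (points) in oocytes, blastocysts and implantation sites, by role group, with the median of each group in red and that of all genes tested as a dashed line. In blastocysts U2af2 (2.36) stands apart from the other genes, and Sf3b6 lies at the bottom in oocytes and at the top at the implantation site.

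A KO effect common to the 3 stages was called for 0 of the 46 genes (limma, stage and genotype in the model), as for 0% of all genes in either direction. At an unadjusted p under 0.05 it was 1 gene, U2af2 (log2 1.27, SE 0.43, adjusted p = 0.707), against 428 higher and 385 lower of all genes. The next largest were Sf3b4 (0.52, SE 0.29) and Sf3b5 (0.42, SE 0.44) in one direction, and Sf3b3 (-0.65, SE 0.33), Srsf11 (-0.51, SE 0.24) and Hnrnpr (-0.49, SE 0.32) in the other, none with an adjusted p below 0.707.

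Whether the KO effect differed between stages was tested with the spread of the blastocyst replicates, a test added after the values were seen that assumes the single arrays vary as those do. No splicing gene passed in the 3 comparisons, where 0.0170% of all genes passed for blastocysts against oocytes, 0% for the implantation site against oocytes and 0% for the implantation site against blastocysts. At an unadjusted p under 0.05 the counts were 5, 11 and 9 of the 46 (10.9%, 23.9% and 19.6%, limma), against 11.7%, 15.6% and 12.5% of all genes and 10.6%, 18.8% and 16.7% of the brightest 2937. Sf3b6 had the smallest p of these genes, its KO effect at the implantation site being 3.37 above that in oocytes (SE 0.56, adjusted p = 0.135), and U2af2 differed by -2.48 between the implantation site and blastocysts (SE 0.70, adjusted p = 0.294). The value of Sf3b6 counts an oocyte KO signal that was below background, so it is approximate.

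Of 3 pairs of related genes, 1 member each was called between blastocysts and oocytes. Hnrnpa1 was lower in blastocysts than in oocytes (log2 -2.81), whereas the related Hnrnpa2b1 had a difference of 0.26 (SE 0.37, adjusted p = 0.591) on its brightest probe set. With quantile normalization Hnrnpa2b1 passed (0.58), and between the implantation site and oocytes it passed with the mean of its probe sets (1.03, adjusted p = 0.0288). Srsf1 was 3.16 higher, while Srsf2, also an exonic enhancer-binding protein, had a difference of 0.80 (SE 0.34) that did not pass (adjusted p = 0.0773). Snrpn, the neuronal and imprinted relative of Snrpb, was too dim on its own probe set to be tested. It read 268 in KO and 164 in WT oocytes, 82.6 and 97.0 in KO and 81.4 and 272 in WT blastocysts, and 5.98 in KO and 313 in WT at the implantation site, above background on 3 of the 8 arrays. In KO against WT blastocysts, Snrpb differed by -0.50 (SE 0.38), Hnrnpa1 by 0.22 (SE 0.30), Hnrnpa2b1 by -0.21 (SE 0.31), Srsf1 by 0.24 (SE 0.31) and Srsf2 by -0.38 (SE 0.30), with adjusted p of at least 0.545.

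Other genes of the splicing pathway were read from 5 further lists. Of 50 tested among other spliceosome proteins, 17 were higher and 8 lower in blastocysts than in oocytes. In percent these are 34.0 and 16.0, against 26.9 and 18.6 of all genes and 39.7 and 33.3 of the brightest 2937, which are the shares to set beside each list in this comparison. Cdc5l, a core protein of the complex that activates the spliceosome, read 412 in KO and 329 in WT oocytes, against which blastocysts read 6880 and 7652 in KO and 12585 and 10082 in WT (log2 4.62, SE 0.34, adjusted p = 1.94e-06). Prpf8, the large protein at the catalytic centre, was below background on both oocyte arrays and at least 8.67-fold higher in blastocysts. The RNA helicase Ddx39b was 3.45 higher (SE 0.33).

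The factors that assemble snRNPs had 7 of 11 tested genes higher in blastocysts than in oocytes and 0 lower, 1 more with an unadjusted p under 0.05 (limma), and a median of 1.80. This is 63.6% higher, where all genes had 26.9% and the brightest 39.7%, and 0% lower. Gemin2, a partner of the SMN protein, read 30.7 in KO and 47.6 in WT oocytes, below background on both arrays, and 1337 and 1330 in KO and 1541 and 816 in WT blastocysts, at least 5.82-fold higher. Wdr77, which works with Prmt5 to methylate Sm proteins, was also below background in oocytes, at 47.9 in KO and 118 in WT, and was at least 9.61-fold higher in blastocysts and at least 11.9-fold higher at the implantation site. Tgs1, which methylates the cap of snRNAs, was 2.99 higher at the implantation site than in oocytes (SE 0.34). That stage had 6 of these 11 genes higher than oocytes and 0 lower (7 and 0 at an unadjusted p under 0.05, limma). This is 54.5% and 0%, where the shares of all genes were 20.5% and 16.6% and those of the brightest 2937 were 35.7% and 27.7%. The filter used the mean signal over all arrays, blastocysts included, for this list as for all genes. It kept 11 of the 13 genes of the list with a probe set. A gene dim in oocytes, as Gemin2 was, could thus enter through its signal at other stages. Whether this raised the counts or the median of the list was not tested, and they describe only the genes that passed.

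Among kinases of SR proteins and SR-like proteins, 4 of 19 were higher and 8 lower in blastocysts than in oocytes (21.1% and 42.1%, against 26.9% and 18.6% of all genes and 39.7% and 33.3% of the brightest 2937). Luc7l3, a U1-associated protein, read 28047 in KO and 34949 in WT oocytes, 2605 and 2251 in KO and 2210 and 2276 in WT blastocysts, and 11741 in KO and 9599 in WT at the implantation site. Its blastocyst arrays were nearly equal and lay below all others (log2 -3.75, SE 0.28, adjusted p = 2.10e-06). Srpk1, the kinase that sends SR proteins into the nucleus, was lower in blastocysts (log2 -2.99, SE 0.27), and Clk1, a nuclear kinase of SR proteins, was 2.34 higher at the implantation site than in blastocysts (SE 0.31). From blastocysts to the implantation site 6 of the 19 genes were higher and 0 lower (limma, 9 and 1 at an unadjusted p under 0.05). This is 31.6% and 0%, against 15.3% and 20.0% of all genes and 26.6% and 22.6% of the brightest 2937.

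The exon junction complex and export list had 3 of 6 tested genes higher and 1 lower in blastocysts than in oocytes, where all genes had 26.9% and 18.6%. The export receptor Nxf1 (log2 4.10, SE 0.34) and the core subunit Rbm8a (3.81, SE 0.38) were each above background on 1 of 2 oocyte arrays, and Casc3 was 1.33 higher (SE 0.48, adjusted p = 0.0423). Regulators of alternative splicing had 9 of 36 higher and 12 lower, near the share of all genes called higher and that of the brightest 2937 called lower. Ptbp2, best known from neurons, read 9578 in KO and 10667 in WT oocytes, 204 and 156 in KO and 339 and 300 in WT blastocysts, and 1912 in KO and 2588 in WT at the implantation site (blastocyst minus oocyte log2 -5.41, SE 0.35, adjusted p = 8.94e-07). Its relative Ptbp1 read 3733 in KO and 972 in WT oocytes, 15124 and 20639 in KO and 67400 and 49092 in WT blastocysts, and 1304 in KO and 1218 in WT at the implantation site. Ptbp2 was below background on both KO blastocyst arrays, and with those signals set to background, an alternative chosen after the values were seen, the difference was -4.71. Ptbp2 was thus highest in oocytes and Ptbp1 in blastocysts, and Ptbp1 was lower at the implantation site than in blastocysts (log2 -4.66, SE 0.62, adjusted p = 0.000261). Mbnl1, known for its part in myotonic dystrophy, was 5.17 higher at the implantation site than in blastocysts (SE 0.42, adjusted p = 1.06e-05), or 4.45 with the KO blastocyst arrays, where it was below background, set to background, beside the muscle and stromal markers of that tissue, whose part was not tested.

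Between KO and WT blastocysts, 1 gene of these lists passed, Nova2, at least 17.5-fold higher in KO (adjusted p = 0.0206). Nova2 did not pass without the intensity trend (adjusted p = 0.266), without the second KO array (log2 3.82) or without the first WT array (4.20). Without the array labelled WT replicate 2 the difference was 4.42. Each array left out leaves 1 array of its genotype. Nova2 was not among the genes tested with the mean of probe sets. Ptbp1 was lower in KO without passing (log2 -1.70, SE 0.36, adjusted p = 0.122), and the U4/U6.U5 protein Snrnp27 had a difference of 1.84 (SE 0.48, adjusted p = 0.168). Of the 36 regulators 29 were below 0 with a median of -0.49, of the other 50 spliceosome proteins 32 (-0.32), of the 19 SR kinases and SR-like proteins 12 (-0.19), of 11 assembly factors 7 (-0.33) and of 6 exon junction genes 3 (-0.02). The brightest 2937 genes had a median of -0.32 in the same comparison, and no test of a list was made.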

How the data were processed

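RNA of 8 samples was measured on one Affymetrix mouse array each. The deposited values are intensity on a linear scale, made by the authors with MAS5 per the submitters' processing notes. Its version was not given in the sources used here. Each array's mean after trimming 2% from each end was 500.

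Signals were taken to log2. Probe sets annotated to 1 gene were kept, the brightest per gene was used, and the upper 50% of probe sets by mean log2 signal (151 in linear units) gave 11745 genes. Differences were tested with limma 3.58.1 in R 4.3.3 (lmFit, eBayes with trend, two-sided, Benjamini-Hochberg adjustment over all 11745 genes, threshold 0.05). Stage comparisons used the 8 arrays in a model of stage plus genotype, and the KO comparison the 4 blastocyst arrays. Single arrays were compared at 2-fold with no test. The number of arrays limits the precision. The fitting code was tested on simulated data. Figures were drawn with matplotlib 3.10.9.

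The genes and lists were chosen with earlier results of these data known. Named genes were the called genes with the largest differences in each direction, the 3 largest KO differences in each direction, fixed pairs of related genes and the leading genes of each list. Genes named for losing a call were chosen after their values were seen. Replicate numbers did not pair the blastocyst arrays (correlation of their deviations 0.0184 over 11745 genes). Alternatives were quantile normalization, a common median, no filter, a pseudocount of 32, no trend, the mean of probe sets, probe sets without suffix, a replicate block and leaving out each array.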

Additional observations from a re-analysis of the deposited data

Results flagged for a closer look

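Outside the 49 genes, 13 of 16 probe sets annotated to a splicing or hnRNP gene together with another gene were above background on each of the 8 arrays, and they entered no test above. Snurf and Snrpn share 6 probe sets, 3 of them above background on all arrays. The brightest read 3725 in KO and 1405 in WT oocytes, 25647 and 8438 in KO and 4714 and 16989 in WT blastocysts, and 1450 in KO and 1648 in WT at the implantation site. On this probe set the blastocyst replicates of each genotype lay far apart and the genotypes overlapped. On the other 2 both KO blastocyst arrays were above both WT arrays, at 3282 and 11278 in KO against 2852 and 2019 in WT, and at 6703 and 3620 in KO against 3290 and 3259 in WT. Of all genes tested, 23.8% had both KO blastocyst arrays above both WT arrays. The one annotated to Snrpd2 read 853 in KO and 1590 in WT oocytes, 4372 and 6300 in KO and 12157 and 6738 in WT blastocysts, and 14086 in KO and 11906 in WT at the implantation site. Signal of these probe sets cannot be assigned to one gene.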

How the results depend on the processing

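With any one array left out, 16 of 23, 15 of 26 and 6 of 16 calls were kept for blastocysts against oocytes, the implantation site against oocytes and the implantation site against blastocysts. Under the other alternatives 13, 14 and 8 were kept. The median of the splicing genes for blastocysts against oocytes was 0.29 with a common median, 0.68 with probe sets without suffix and 0.16 to 0.62 with an array left out. For the implantation site against oocytes it was 0.80 with a common median, 0.43 for the mean of probe sets, 0.89 without suffix and 0.45 to 0.97 with an array left out. For the implantation site against blastocysts it was 0.09 with quantile normalization, 0.67 with a common median and -0.05 to 0.78 with an array left out, and the count of calls was 9 without the trend and 8 to 20 with an array left out. All genes called in that comparison were 1798 higher and 2353 lower, and 2066 and 1598 with a common median. For KO against WT blastocysts the median was -0.48 with a common median and -0.39 to -0.06 with an array left out. The count of calls was 1 with a common median and 1 with the replicate block. Of all genes, 59 were then called higher and 14 lower with a common median, and 91 and 1 with the block. The main fit had 12 and 0. In oocytes the KO median was -0.05, -0.96 and -0.19 with quantile normalization, a common median and the mean of probe sets, and 4 and 22 genes were at least 2-fold apart with the first 2 of these. At the implantation site it was 0.10, 0.83, 0.02 and 0.06 with quantile normalization, a common median, the mean of probe sets and no suffix, and 15, 4, 3 and 0 genes were 2-fold apart with a common median, no filter, the mean of probe sets and no suffix. Scaling to a common median shifted the all-gene median most in oocytes, to -0.45 from 0.09 for KO minus WT. Signs were turned for blastocysts against oocytes in Hnrnpa1 (0.65 without suffix), Hnrnpc (0.16 for the mean, 0.76 without suffix) and Sf3a1 (0.18 and 1.91). They were turned for the implantation site against oocytes in Hnrnpa1 (0.80) and Sf3a1 (0.21) without suffix and in Sf3b2 (-0.27) and Snrpc (-0.02) for the mean, and against blastocysts in Sf3b2 (-0.52 for the mean, -0.02 without suffix). The cause was not tested. Signals near the Bacillus controls, as those of Snrpb, Snrpc and Sf3b6 in the KO oocyte array, limit the folds against oocytes.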
